A study of Drosophila melanogaster with 19 samples.

Results

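The testis transcription program is run in primary spermatocytes by 2 groups of proteins, and the 10 genes described here encode both. The 5 testis-specific TAFs, can, mia, sa, nht and rye, are relatives of subunits of the general transcription factor TFIID. The other 5 genes, aly, comr, topi, achi and vis, encode parts of tMAC, the testis meiotic arrest complex. The genes were taken by name from a fixed list, with no cut on a measured value. That list was drawn up with earlier results of these data known. The genes are 10 of the 13922 protein-coding genes on the main chromosomes of the gene table. All 10 are autosomal.

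Each gene was looked up in the peak lists of ChIP-seq (chromatin immunoprecipitation with sequencing) against MSL2, the protein that restricts the dosage compensation complex to males. One list is from M1[wt] males and the other from wt males, each with 1 listed sample out of the 19 in the series. Both are whole adult Drosophila melanogaster of the Oregon-R strain aged 3 days, and the labels give the genotypes only as M1[wt] and wt. The sources used here do not give the transgene, promoter or msl-1 allele of M1[wt] flies. Antibodies raised in rabbits were used, and the control was IgG from preimmune rabbit serum. The M1[wt] list held 3944 peaks, with 2340 on the autosomes, and the wt list held 3799, with 2173 on the autosomes. Read depth is unknown. Chromatin of the germ line and of somatic tissues was prepared together, so a peak cannot be placed in either. A gene was said to have a peak when a summit, the position of highest signal in a peak, lay in it or within 1000 bases. Strength is the −log10 p of the peak, the lower of the values of 2 replicate calls, and it ranks peaks within a list only.

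Males that lack such a regulator, or achi and vis together, which can stand in for each other, make spermatocytes that stop before the meiotic divisions and do not turn on the genes for spermatid differentiation, hence the name meiotic arrest genes. The tMAC complex is a testis form of the Myb-MuvB complex, which other cells use to switch genes on and off. The testis TAFs are thought to act with it at the promoters of spermatid genes and to counter Polycomb repression there. The dosage compensation complex, in contrast, is best known for binding the male X chromosome in somatic cells.

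Of these genes, mia and achi had a peak, and the share was near that of all autosomal genes. In the M1[wt] list 2 of the 10 genes had a peak, or 20.0% (exact Clopper-Pearson 95% interval 2.52 to 55.6%), where 24.1% of all 11725 autosomal protein-coding genes had one. In the wt list 2 of 10 had one, where 22.3% of the autosomal genes did. Both genes had their peak in both lists, as did 18.3% of all autosomal genes. With 10 genes, shares well above or below the background lie inside the interval, so the count says nothing particular about these genes. Among autosomal genes no longer than the longest of the 10 (3529 bases), 17.1% had a peak in the M1[wt] list and 14.9% in the wt list. With the summit inside the gene itself, 1 of the 10 genes (achi) counted in each list, where 10.4% of autosomal genes in the M1[wt] list and 9.89% in the wt list did. The testis TAFs and the tMAC parts did not differ in this count, with 1 of 5 genes in each group in each list. No test was made of these counts, because each line has 1 listed sample.

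**Figure D1:**
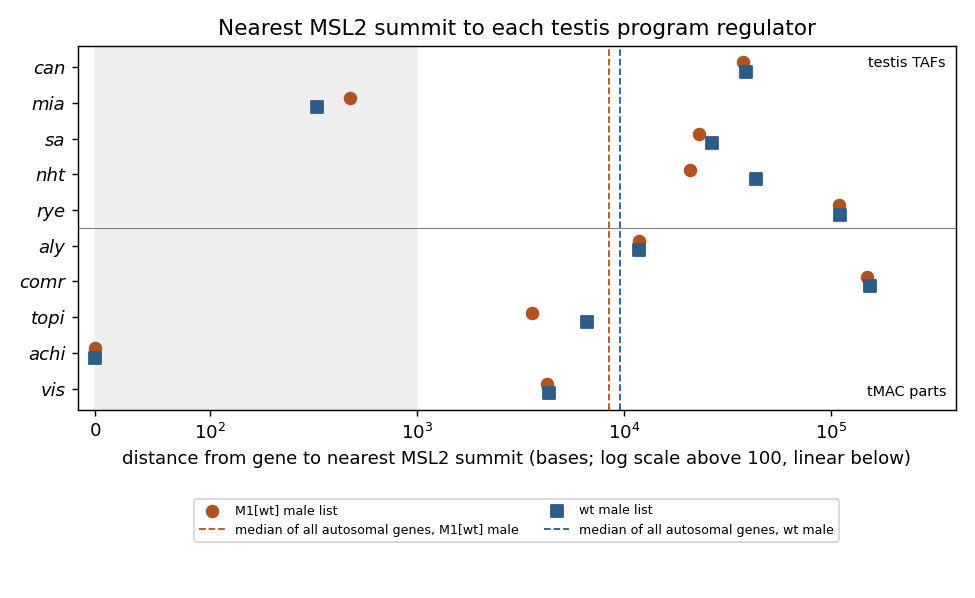
Distance in bases from each of the 10 genes to the nearest MSL2 summit in the M1[wt] male list (circles) and the wt male list (squares), on an axis that is logarithmic above 100 bases. The grey band marks the 1000 bases that count as a peak at the gene, which holds mia and achi, and the dashed lines mark the medians of all autosomal protein-coding genes.

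The gene mia encodes the testis relative of the TFIID subunit Taf6 and lies at 3R:5548115-5551168 (dm6). Its peak spanned 3R:5547193-5547951 in M1[wt] males and 3R:5547299-5547934 in wt males. The strength was 66.4 in M1[wt] males, with 66.4 and 93.0 in the replicate calls, and 83.8 in wt males, with 131 and 83.8 in the replicate calls. The replicate calls of 1 list thus differed by more than the peak values of the lists did. Among autosomal peaks, 69.9% in the M1[wt] list and 84.7% in the wt list were weaker, which makes it a peak of the upper part of each list, at rank 1246 of 3944 and rank 608 of 3799. The peaks overlapped by 636 bases, and their summits were 147 bases apart.

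This peak lay outside mia and closer to its neighbour. In M1[wt] males the summit was 476 bases from mia and inside CG2519 (3R:5539510-5547775), 136 bases from the end of that gene. In wt males it was 329 bases from mia and 11 bases from CG2519, in the gap of 340 bases that separates the genes. Both peak intervals stopped short of mia. By the rule used here, which gives a peak to the gene that holds the summit or otherwise to the nearer gene end, CG2519 was the likelier owner in both lists. The gene table gives no strand, so whether the gap holds the start of mia, of CG2519 or of both is not known here. On the other side of mia, Pcmt and Snm1 had no peak in either list. The wider neighbourhood was rich in peaks, with 7 summits within 50000 bases of mia in the M1[wt] list and 8 in the wt list, this peak included. The autosomal median was 3 in each list.

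**Figure D2:**
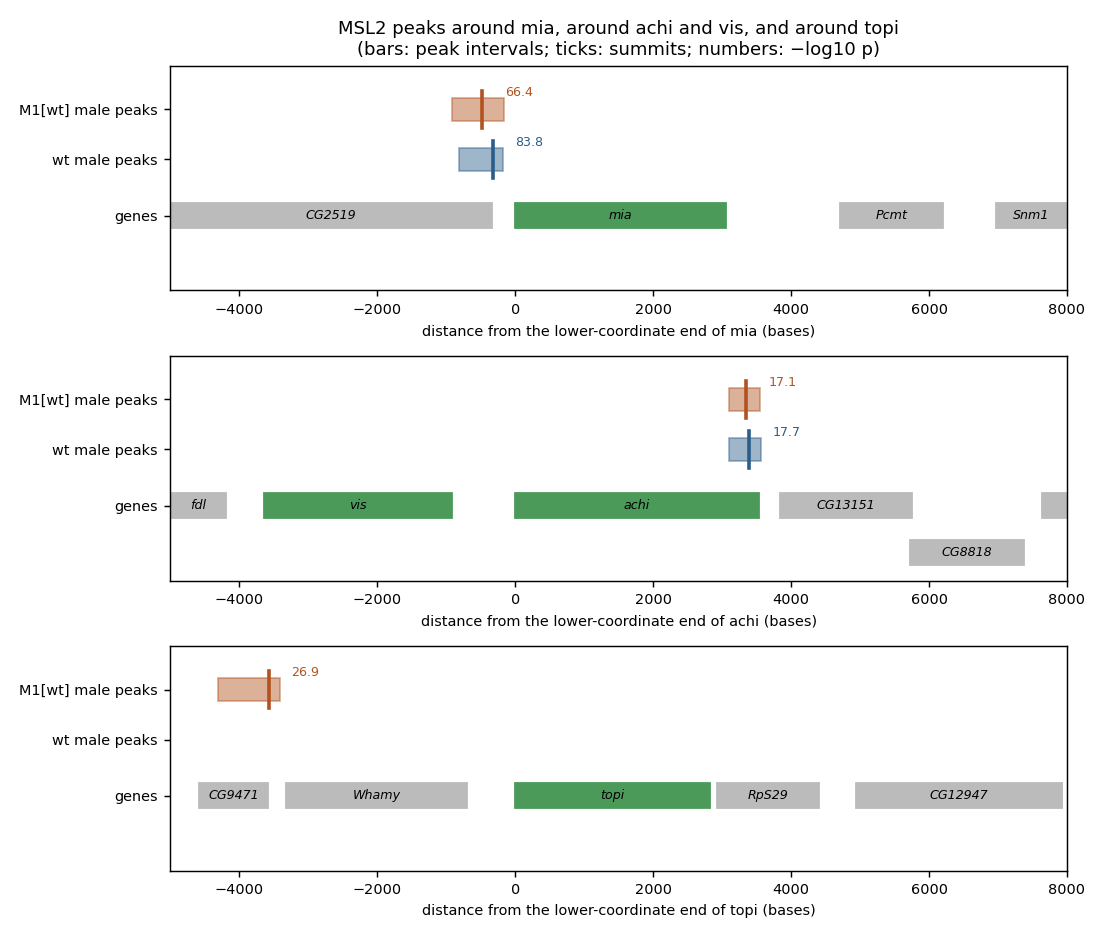
Peak intervals (bars), summits (ticks) and −log10 p (numbers) in the M1[wt] male list (upper row) and the wt male list (lower row) around mia, around achi with vis, and around topi, against the distance in bases from the lower-coordinate end of each gene. Named genes are green and other genes grey; the mia summits sit at the end of CG2519, the achi summits lie inside achi near CG13151, and no interval touches vis or topi.

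The gene achi, at 2R:12511534-12515062, held its own peak. It encodes a homeodomain protein of the TGIF family and lies beside vis (2R:12507896-12510615), which arose from the same duplication and encodes a closely related protein. The achi peak spanned 2R:12514630-12515076 in M1[wt] males and 2R:12514632-12515100 in wt males, nearly the same interval, and the summits were 52 bases apart. Its strength was 17.1 in M1[wt] males, with 18.3 and 17.1 in the replicate calls, and 17.7 in wt males, with 21.6 and 17.7. This was a weak peak of each list, at rank 3179 of 3944 and rank 2292 of 3799, and 18.9% of autosomal peaks in the M1[wt] list and 39.2% in the wt list were weaker. The medians of the autosomal peaks were 34.6 and 23.0.

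The achi summit was 184 bases from the nearer gene end in M1[wt] males and 132 bases in wt males. The next gene, CG13151, begins or ends 313 bases beyond achi, and the summit was 497 bases from it in M1[wt] males and 445 in wt males. By the ownership rule achi kept the peak in both lists. Strand is not known here, so a peak at an end shared with the promoter of CG13151 cannot be told apart from one at achi. No peak lay at vis, whose nearest summit was this achi summit, 4263 bases away in M1[wt] males and 4315 in wt males. The genes are close copies, and the sources used here do not say how reads that match both were counted.

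**Figure D3:**
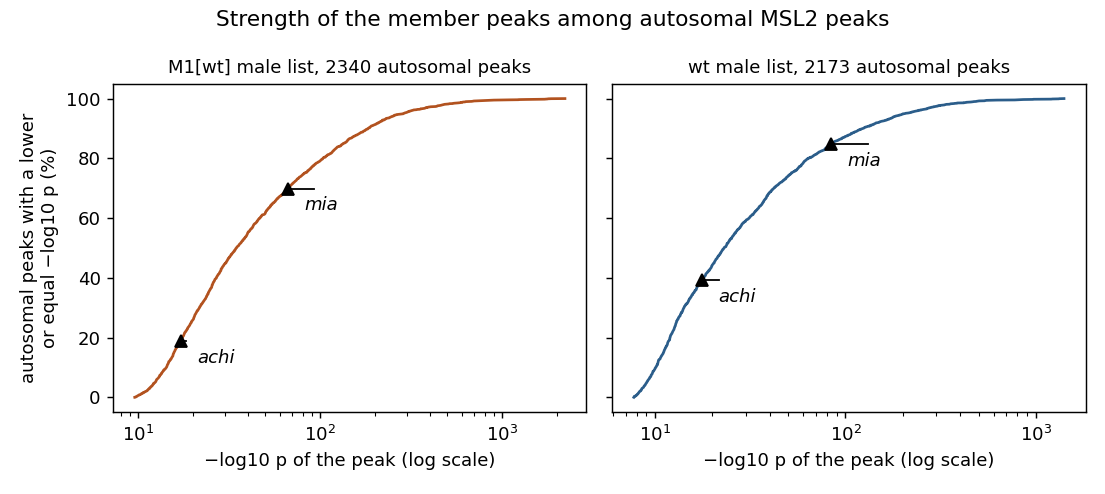
Share of autosomal MSL2 peaks with a −log10 p at or below each value, on a logarithmic axis, in the M1[wt] male list (left) and the wt male list (right). Triangles mark the peak at mia, with 69.9% and 84.7% of peaks weaker, and the peak at achi, with 18.9% and 39.2% weaker; horizontal lines join the values of the replicate calls.

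The other testis TAFs had their nearest summit farther away than the autosomal median, from 20846 to 110414 bases. The gene can, the relative of Taf5 at 3L:10263909-10267111, was 37700 bases from a summit in M1[wt] males and 39008 in wt males. Both of those peaks were weak (11.1 and 11.6) and lay at scramb1, one beside it and one inside it, but they did not overlap each other. The gene sa, the relative of Taf8 at 3L:21405425-21406738, lies inside the span of rgn. Its nearest summit was 23000 bases away in M1[wt] males, at a peak 76 bases from rgn (28.3), and 26609 bases away in wt males, at a peak 75 bases from Aef1 (141). The Aef1 peak was also in the M1[wt] list, with its summit at the same base and a strength of 166.

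The gene nht, the relative of Taf4 at 2L:15317954-15318901, had no other protein-coding or long noncoding RNA gene within 5000 bases. Its nearest summit was 20846 bases away in M1[wt] males, at a weak peak (11.01) that lay 3609 bases from esg and overlapped no wt peak. In wt males it was 43238 bases away, inside UK114 (18.7), where the M1[wt] list also had a peak (39.1). The gene rye, the relative of Taf12 listed as Taf12L at 2L:4700835-4701485, lies inside the span of dcma, and dcma had no peak in either list. The nearest summit to rye was 109395 bases away in M1[wt] males and 110414 in wt males, beside or in lncRNA:CR45297.

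Among the tMAC parts, topi and vis came closest to a peak without having one. The gene topi, which encodes a zinc-finger protein, lies at 3R:9775121-9777943, only 99 bases from the ribosomal protein gene RpS29, and neither gene had a peak. The nearest summit was 3575 bases from topi in M1[wt] males, 4 bases from CG9471 (26.9), and 6638 bases away in wt males, 72 bases from CG8500 (41.9). These were separate peaks on opposite sides of topi, and neither overlapped a peak of the other list. The M1[wt] summit at 3575 bases was the closest to the limit of 1000 bases from outside, and the M1[wt] summit at 476 bases from mia was the closest from inside.

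The gene aly encodes the testis relative of the Myb-MuvB subunit Mip130 and lies at 3L:3024129-3026521. Its nearest peak was the same in both lists, inside CG2162, with the summit 11799 bases away in M1[wt] males (17.7) and 11777 in wt males (12.4). The gene comr, at 2R:21864870-21866859, encodes a nuclear protein that works together with Aly. It was the farthest from a peak, with 150049 bases in M1[wt] males and 155209 in wt males. These were separate peaks inside HmgD, a gene of a high-mobility-group DNA-binding protein. The wt peak (33.2) was also in the M1[wt] list, with its summit 3 bases away and a strength of 67.4. The nearer M1[wt] peak (30.4) overlapped no wt peak. Of all autosomal genes, 98.6% in the M1[wt] list and 99.3% in the wt list had a nearer summit than comr, and 96.3% and 97.2% had a nearer one than rye.

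Of the 8 genes without a peak, the nearest peak overlapped a wt peak for 3 in the M1[wt] list, and overlapped an M1[wt] peak for 6 in the wt list. Over all autosomal genes without a peak, this held for 67.7% of 8905 genes in the M1[wt] list and 73.1% of 9107 in the wt list. Over all 10 genes the median distance to a summit was 16322.5 bases in M1[wt] males and 19193 in wt males, where the medians of all autosomal genes were 8493 and 9563. In each list 6 of the 10 genes lay farther away than the autosomal median. Over both lists the distances ran from 0 to 155209 bases.

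The regions around rye and comr were wide stretches with no summit. The stretch around rye measured 351026 bases in M1[wt] males and 347203 in wt males, and held 21 and 19 protein-coding genes. That around comr measured 346972 and 351218 bases and held 36 such genes in each list. For an autosomal gene without a summit inside it, the median stretch was 80550 bases in the M1[wt] list and 81789 in the wt list. Other stretches differed between the lists. That around nht measured 65133 bases in M1[wt] males and 216853 in wt males, and that around sa 50923 and 89888. The stretch around can differed the other way, with 296365 bases in M1[wt] males and 100579 in wt males, because the wt list had a summit 58368 bases beyond can, and so did that around aly, with 239449 bases in M1[wt] males and 143256 in wt males. At the other extreme topi lay in a stretch of 19889 bases in M1[wt] males and 16781 in wt males.

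A peak was found at most of the ubiquitous relatives of these genes. For 6 of the 10 genes the relative that acts in other cells was fixed in a list: Taf5 for can, Taf6 for mia, Taf8 for sa, Taf4 for nht, Taf12 for rye and mip130 for aly. In each list 1 of the 6 testis genes, mia, had a peak, and 5 of the 6 relatives had one in both lists. Taf8 and mip130 are X-linked, where 52.0% of protein-coding genes in the M1[wt] list and 53.7% in the wt list had a peak. Among the 4 autosomal relatives 3 had a peak, and Taf12 had none. Of all autosomal genes, 24.1% in the M1[wt] list and 22.3% in the wt list had one. These are counts of a few genes and were not tested. Length differs within the pairs. Taf5 (2362 bases) and Taf6 (2295) are shorter than can (3203) and mia (3054). The other relatives are longer than their testis genes, most of all Taf4 (8440, beside 948 for nht) and mip130 (12080, beside 2393 for aly).

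Pair by pair, nht had no peak, while Taf4 held one inside it, with a strength of 69.9 in M1[wt] males and 80.2 in wt males. The gene can had none, while a summit lay 56 bases from Taf5 in M1[wt] males (21.0) and 51 bases in wt males (13.1). The gene sa had none, while the strongest peaks at Taf8 reached 53.8 in M1[wt] males and 45.1 in wt males, with summits 15 and 17 bases from the gene. In each of these pairs the lists gave the same picture. Nor did aly have a peak, while the strongest at mip130 reached 69.7 in M1[wt] males and 53.6 in wt males. The wt peak also lay inside Rbcn-3B, which overlaps mip130 and was the likelier owner of that peak. The remaining pairs differed from these. Neither rye nor Taf12 had a peak in either list. In the other pair both mia and Taf6 had peaks. That at mia was the stronger in each list, but its likelier owner was CG2519. At Taf6 the strength was 17.9 in M1[wt] males, where the summit was 308 bases from Taf6 and 25 bases from ash1, the likelier owner. In wt males the strength was 11.8, and the summit lay inside Taf6.

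**Figure D4:**
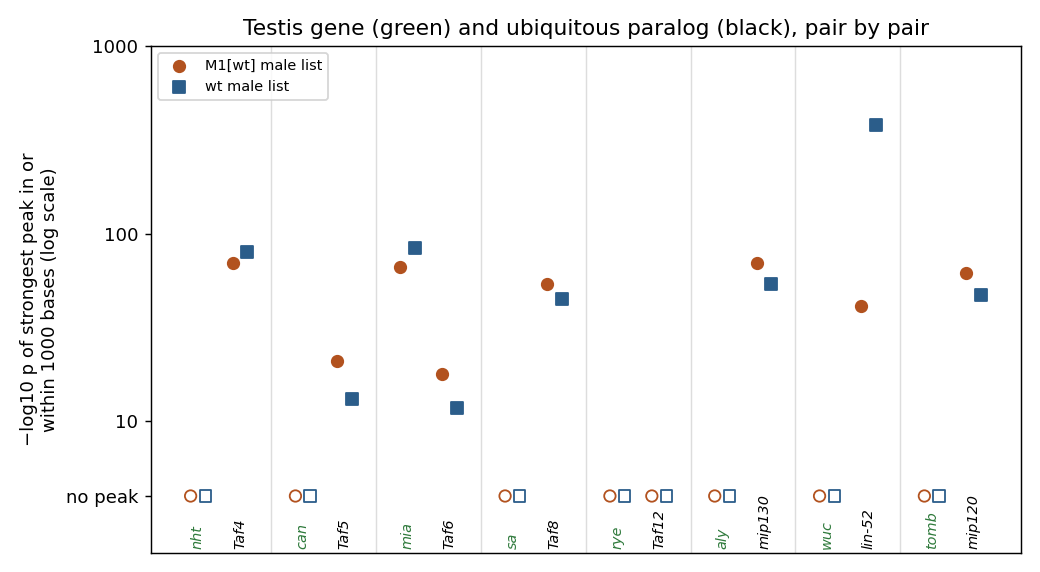
−log10 p of the strongest MSL2 peak in or within 1000 bases of each testis gene (left of each pair, green name) and its ubiquitous relative (right, black name), on a logarithmic axis, in the M1[wt] male list (circles) and the wt male list (squares). Open symbols mark genes with no peak; of the testis genes shown, mia alone has one, and of the relatives, Taf12 alone has none.

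Of 16 other regulators of the testis program, mip40 and bol had a peak in each list, or 12.5%, beside 24.1% of autosomal genes in the M1[wt] list and 22.3% in the wt list. This order holds only close to the genes. Within 2000 bases 6 of the 16 in the M1[wt] list (37.5%, beside 28.8% of autosomal genes) and 5 in the wt list (31.2%, beside 26.7%) had a summit. The gene mip40 encodes a subunit common to tMAC and Myb-MuvB, and its summit lay inside Fkbp12, the likelier owner, 636 bases from mip40 in M1[wt] males (59.8) and 629 bases in wt males (19.9). The gene bol, which encodes a translational regulator of meiotic entry, had 2 summits in each list. The stronger lay 85 bases outside it in M1[wt] males (38.4) and 79 bases in wt males (25.3), and was nearer to Dhpr, at 70 and 76 bases. The weaker lay inside bol (11.8 in M1[wt] males and 15.5 in wt males), and bol was its owner by the same rule. The tMAC subunit genes tomb and wuc, relatives of mip120 and lin-52, had no peak, while mip120 had one inside it in both lists (61.5 and 47.2).

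None of the 25 autosomal spermatid genes that the program switches on had a peak in either list. The share was 0%, with an exact upper bound of 13.7% that counts each gene as independent. Of all autosomal genes, 24.1% in the M1[wt] list and 22.3% in the wt list had a peak. Among those of at most 3529 bases, 17.1% and 14.9% did. The difference was not tested. The genes fzo, dj and Mst87F are among the 25. The nearest summits of the 25 genes were a median of 32703 bases away in M1[wt] males and 51725 in wt males. The spermatid genes are short, with a median length of 1127 bases against 2099 for all autosomal genes, and several are neighbours of each other, as are the 4 genes of the Mst84D cluster. The X-linked spermatid genes r-cup and p-cup had no peak either, with summits 2059 and 22583 bases away in M1[wt] males and 2062 and 22582 in wt males.

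Within 1000 bases, genes for the ubiquitous complexes carried peaks at shares above those of all autosomal genes, 24.1% in the M1[wt] list and 22.3% in the wt list. The difference from the testis genes was not tested. Of 13 autosomal TFIID genes, 7 had a peak in each list (53.8%, exact interval 25.1 to 80.8%). The strongest was at Taf7, inside the gene, at 375 in M1[wt] males and 305 in wt males. The gene was the likelier owner of the summit for 5 of the 7 in the M1[wt] list and for 6 of the 7 in the wt list. With the summit inside the gene, 2 of 15 TFIID genes counted in M1[wt] males, X-linked ones included (13.3%, beside 10.4% of autosomal genes). In wt males 4 counted (26.7%, beside 9.89%). On the X, Taf8 had a peak in both lists, and Taf9 had one in the wt list alone (15.7). Of 6 autosomal Myb-MuvB genes, 4 had a peak in the M1[wt] list (66.7%, exact interval 22.3 to 95.7%). In the wt list 2 had one (33.3%, exact interval 4.33 to 77.7%), mip120 and mip40, and the mip40 summit lay inside Fkbp12. Both intervals include the share of all autosomal genes. The gene was the likelier owner of the summit for 3 of the 4 in the M1[wt] list and for 1 of the 2 in the wt list. Rbf2 (55.8) and Dp (20.7) had one in M1[wt] males alone. The X-linked gene Rbf, which encodes the fly retinoblastoma protein, had the strongest of this group, at 583 in M1[wt] males and 443 in wt males. At lin-52, also X-linked, the strongest summits lay in neighbouring genes, in CG15772 in M1[wt] males (41.0) and in CG15771 in wt males (377). These are different sites, and the wt list also had a weaker peak at CG15772 (23.9) that overlapped the M1[wt] peak. The remaining X-linked gene, Myb, had a peak in wt males alone (10.5).

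**Figure D5:**
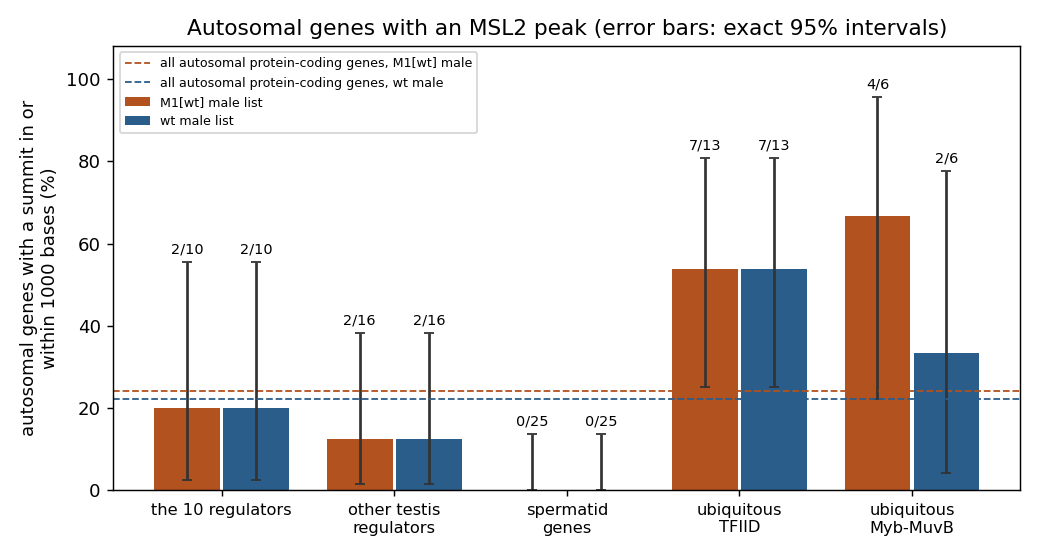
Share of autosomal genes with an MSL2 summit in or within 1000 bases, in percent, in the M1[wt] male list (left bars) and the wt male list (right bars), for the 10 regulators and for each other gene list, with exact 95% intervals as error bars, counts above them, and dashed lines at the shares of all autosomal protein-coding genes. The 10 regulators, at 20.0% in each list, lie near the dashed lines at 24.1% and 22.3%.

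A peak that is not listed is no measurement of absent binding, since the lists hold only peaks with a global irreproducible discovery rate (IDR) of 0.05 or less and the signal elsewhere was not analysed.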

How the data were processed

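MSL2 peak lists of M1[wt] males and wt males were used, and the other samples were not analysed here. MACS2, Bowtie2, cutadapt, Picard and deepTools, and the builds dm3 and dm6, are named without role or order, per the submitters' processing notes. Gene positions match dm6. The lists, as the authors deposited them, have 20 columns: a −log10 p of the peak and of each of 2 replicate calls, local and global IDR values on the −log10 scale, and a score scaled from them. Whether these calls come from separate libraries is not stated. The peak value equals the lower call in all 3944 and 3799 rows. Columns for fold and q hold a placeholder.

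Summits were set against an NCBI RefSeq gene table of Release 6, which gives no strand, with Python 3.11.15, pandas 2.3.3 and SciPy 1.17.1. Of 79 list names 78 matched, 72 by symbol and 6 by synonym. The name rye is also a synonym of nAChRalpha4, and Taf12L was taken and counted among the symbol matches. The members and lists were chosen with earlier results of these data known. Named genes are all members, their relatives and neighbours, and from each other list the up to 3 genes best ranked in both lists. Genes without a peak and those with a peak in 1 list were named after their values were seen. The genes mip40 and Caf1-55 stand in 2 lists. Ownership was planned on gene starts, which need strand, so the nearer gene end took its place, and the promoter motif search was not run. Intervals cover counting error only. On simulated data, 100% of 200 planted summits were found and 0% of those planted 1 base outside the limit. This checked the computing of the distance limit alone, not the ownership rule.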

Additional observations from a re-analysis of the deposited data

How the results depend on the processing

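The count of 2 members in each list held with summits within 500 bases (beside 20.9% of autosomal genes in M1[wt] and 19.2% in wt males) or 2000 bases (28.8% and 26.7%) and at a global IDR of 0.01 or less (21.9% and 19.7%). With the summit inside the gene, 1 member (achi) remained in each list, beside backgrounds of 10.4% in M1[wt] and 9.89% in wt males. The other testis regulators then numbered 1 in each list. Of 15 TFIID genes, X-linked ones included, 2 in M1[wt] and 4 in wt males counted (8 and 9 in the report's setting). Of 10 Myb-MuvB genes, X-linked ones included, 4 in M1[wt] males counted (7). The counts below use the same totals, while every background is of autosomal genes alone. With peak intervals that overlap the gene, 1 member (achi) and 1 other testis regulator counted in each list, beside 19.7% and 17.7%. Within 500 bases the other testis regulators numbered 1 in each list, and within 2000 bases 6 of 16 in M1[wt] and 5 in wt males (37.5% and 31.2%), above the shares of autosomal genes rather than below them. Within 5000 bases the members numbered 4 in M1[wt] males, with topi and vis added, beside a background of 40.2%, and 3 in wt males, with vis added, beside 37.8%. The other testis regulators then numbered 9 and 8 (56.2% and 50.0%), and the spermatid genes 2 and 3. At a global IDR of 0.001 or less 1 member (mia) remained in each list, beside 16.1% and 14.3%, with 5 TFIID genes in M1[wt] males and 1 other testis regulator in wt males. At a −log10 p of at least 50, 1 member (mia) remained in each list, beside 11.2% and 7.39%, with 1 and 0 other testis regulators. The TFIID genes numbered 3 in M1[wt] males, the X-linked Taf8 among them, and 2 in wt males. The 3 Myb-MuvB genes in wt males, mip130, lin-52 and Rbf, are all X-linked. With summits within 100 bases, 1 member peak (achi) counted as shared, in place of 2. The higher replicate call gave 93.0 and 131 at mia and 18.3 and 21.6 at achi, in M1[wt] and wt males. Ownership was the same with protein-coding neighbours alone. These changes follow from how each setting counts peaks. No paired analysis was possible because each line has 1 listed sample. Ownership by gene start was not run, since strand is not known here.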
